A study of Mus musculus with 6 samples.

Results

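The genes described here encode heat shock proteins and chaperones. They were chosen by symbol alone: HSP90, HSP70 and HSP110, HSP60 and HSP10, small heat shock proteins, the TRiC chaperonin, J-domain proteins, BAG co-chaperones and heat shock factors. The rule took 89 of the 23355 gene entries in the table, and it leaves out chromosome 15, where 5 further entries match by name. RNA was sequenced from ID4-GFP+ spermatogonia, testis germ cells sorted by a fluorescent reporter of the transcription regulator ID4. The labels give 3 samples with ID4 overexpression in germ cells, described as constitutive, and 3 control samples. Both groups therefore share the reporter. The promoter that drives the overexpression, the strain and the age of these 6 samples are not given in the sources used here. Id4 was listed at 13.4 FPKM with overexpression and 6.37 FPKM in controls.

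Chaperones bind unfolded protein and keep it from aggregating until it folds, is transported or is degraded. HSP70 proteins do so in cycles of ATP hydrolysis. J-domain proteins deliver clients and trigger the hydrolysis, and nucleotide exchange factors such as the BAG and HSP110 proteins reset the cycle. HSP90 and the ring-shaped chaperonins act further downstream, and heat shock factors switch on many of these genes under stress. Germ cells also use chaperones of their own, such as HSPA2, which spermatocytes need to complete meiosis.

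Levels are the authors' FPKM (fragments per kilobase of transcript, relative to mapped fragments), 1 value per group already combined over its 3 samples. How the values were scaled between samples is not stated. No SD can be given, depth per sample is unknown, and the spread between samples enters only through the authors' own test. A gene is called higher or lower here where the authors tested it and their q, a p-value adjusted over all tested genes, was 0.05 or less. Nothing in the labels says that the 3 samples of a group came from separate animals, so q measures the spread between these samples. Of 8 spermatogonial markers, all 8 were tested, 1 was called higher (Gfra1) and 2 lower (Uchl1 and Lin28a), and their median log2 fold change was -0.01. Their summed level was 1840 FPKM with overexpression and 2148 FPKM in controls. Markers of other cells moved with the groups: 11 of 12 tested macrophage, 7 of 11 Sertoli, 4 of 5 Leydig, 2 of 3 fibroblast and 5 of 5 spermatid markers were called higher. Their summed levels were 313, 356, 73.0, 48.6 and 317 FPKM with overexpression and 83.6, 183, 26.2, 21.4 and 81.1 FPKM in controls. None of these markers was listed at 0 in either group. A further 3 Sertoli, 1 Leydig, 6 fibroblast and 5 spermatid markers were not tested, and the sums include them. The 4 endothelial markers were not tested and summed to 3.53 FPKM with overexpression and 2.04 FPKM in controls. The part of these cells in the results below was not tested. In bulk RNA, fewer cells of a type and less RNA per cell cannot be told apart.

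Of 74 tested chaperone genes, 5 were called. Dnajb1, Dnajb11 and Dnajc5b, all J-protein genes, rose, and Hspa2 and the BAG gene Bag2 fell. The authors tested 74 of the 89 members. Of these, 3 were called higher, 2 lower and 69 neither, which is 6.76% called, against 17.0% of all 10990 tested entries. By direction, 9.59% of all tested entries were called higher and 7.42% lower. Outside chromosome 15, where all members lie, these shares were 9.81% and 5.51%, and 15.3% were called either way. The median log2 fold change (overexpression over control) was 0.04 over tested members and 0.01 over all tested entries. Among tested members 41 had a log2 fold change above 0 and 33 below 0, and 66 had a value within 0.5 of 0.

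**Figure D1:**
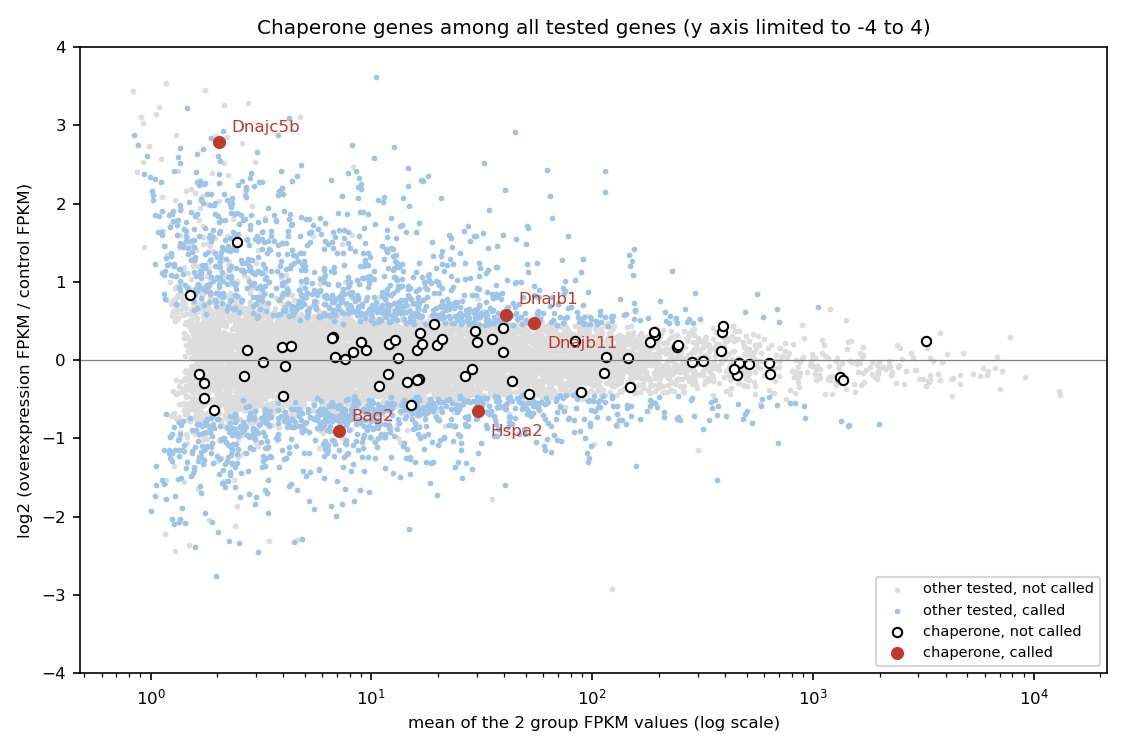
Log2 fold change (overexpression over control FPKM, y axis) against the mean of the 2 group FPKM values (x axis, log scale) for tested genes, with chaperone genes as large circles, filled where called. The called members are Dnajc5b, Dnajb1, Dnajb11, Hspa2 and Bag2, and none of the 16 members at 200 FPKM or more is called. Not drawn are 7 genes with an absolute value above 4 and 5 listed at 0 in a group.

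The share of genes called varied with their level. Over tested members the median level was 23.2 FPKM with overexpression and 22.3 FPKM in controls. Over all tested entries it was 11.2 FPKM with overexpression and 10.9 FPKM in controls. Of 573 tested entries with a mean of 200 FPKM or more, 9.95% were called, and the smallest absolute log2 fold change called among them was 0.45. The 16 members at that level include 0 called genes, and their median absolute log2 fold change was 0.17, beside 0.17 over all entries there. From 50 to 200 FPKM 1 of 11 members was called, beside 12.4% of all entries. Between 5 and 50 FPKM it was 3 of 33 members and 16.8% of entries, and under 5 FPKM 1 of 14 members and 20.8% of entries. The shares of all entries include chromosome 15, which the members leave out. The difference between the members' share and that of all entries was not tested.

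The HSP90 proteins mature kinases, steroid receptors and other signalling proteins. Hsp90ab1, the constitutive cytosolic form, had 1226 FPKM with overexpression and 1428 FPKM in controls. The inducible cytosolic form Hsp90aa1 had 596 FPKM with overexpression and 676 FPKM in controls. Hsp90b1, which encodes GRP94 of the endoplasmic reticulum (ER), had 433 FPKM with overexpression and 338 FPKM in controls. None of the 3 was called: the authors' deposited table lists q = 0.588 for Hsp90ab1, 0.625 for Hsp90aa1 and 0.191 for Hsp90b1. The values of both cytosolic forms lie below the control values and that of the ER form above. Hsp90aa1 shares 58.5% of the 50-base words of its longest coding transcript with transcripts of other genes, so its reads may be split between copies.

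Hspa8 dominated the HSP70 and HSP110 family in both groups. This constitutive HSP70 of the cytosol, also called HSC70, had 3523 FPKM with overexpression and 2963 FPKM in controls, which was 79.1% of the family's summed level with overexpression and 78.9% in controls. By mean level it ranked 33 among all tested entries, and it was not called (q = 0.641 in the authors' deposited table). It shares 74.8% of its 50-base words with other transcripts, so its value is uncertain. Hspa5, which encodes the ER chaperone BiP, followed with 451 FPKM with overexpression and 333 FPKM in controls (q = 0.0976 in the authors' deposited table). Hspa14, a partner of ribosomes, had 261 FPKM with overexpression and 228 FPKM in controls, and mitochondrial Hspa9 had 118 FPKM with overexpression and 114 FPKM in controls. Neither was called. Hspa14 shares exons with the annotated gene Gm45902.

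Hspa2 fell. It is the HSP70 gene known for its role in spermatocytes, and its level was 23.5 FPKM with overexpression and 37.0 FPKM in controls, a log2 fold change of -0.65 (q = 0.00438 in the authors' deposited table). It lies on chromosome 12 of GRCm38, positions 76404176 to 76406936, and shares 0% of its 50-base words with other transcripts. The ratio of Hspa8 FPKM to Hspa2 FPKM was 149.8 with overexpression and 80.1 in controls. It is uncertain because the Hspa8 value is, as given above. Spermatid markers were higher in the same comparison, as given above, and Hspa2 was lower. No list of spermatocyte markers was used, and the part of spermatocytes or spermatids in the Hspa2 value was not tested.

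The other HSP70 relatives were not called. Hsph1, the HSP110 exchange factor HSP105, had 22.2 FPKM with overexpression and 16.1 FPKM in controls, with q = 0.0605 in the authors' deposited table. Its relatives Hspa4 and Hspa4l had 27.4 and 13.1 FPKM with overexpression and 29.7 and 15.8 FPKM in controls. Hspa13, a microsomal form, had 13.3 FPKM with overexpression and 13.1 FPKM in controls. Hspa1l, known from spermatids, had 1.45 FPKM with overexpression and 2.03 FPKM in controls. The classical heat-inducible genes Hspa1a and Hspa1b were low and were not tested. Hspa1a had 0.444 FPKM with overexpression and 0.416 FPKM in controls, and Hspa1b had 0.156 FPKM with overexpression and 0.284 FPKM in controls. These copies resemble each other and Hspa1l, and 66.3% of the words of Hspa1a, 62.3% of Hspa1b and 71.4% of Hspa1l occur in transcripts of other genes. The distant relatives Hspa12a and Hspa12b were not tested and did not exceed 1.37 FPKM in either group.

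**Figure D2:**
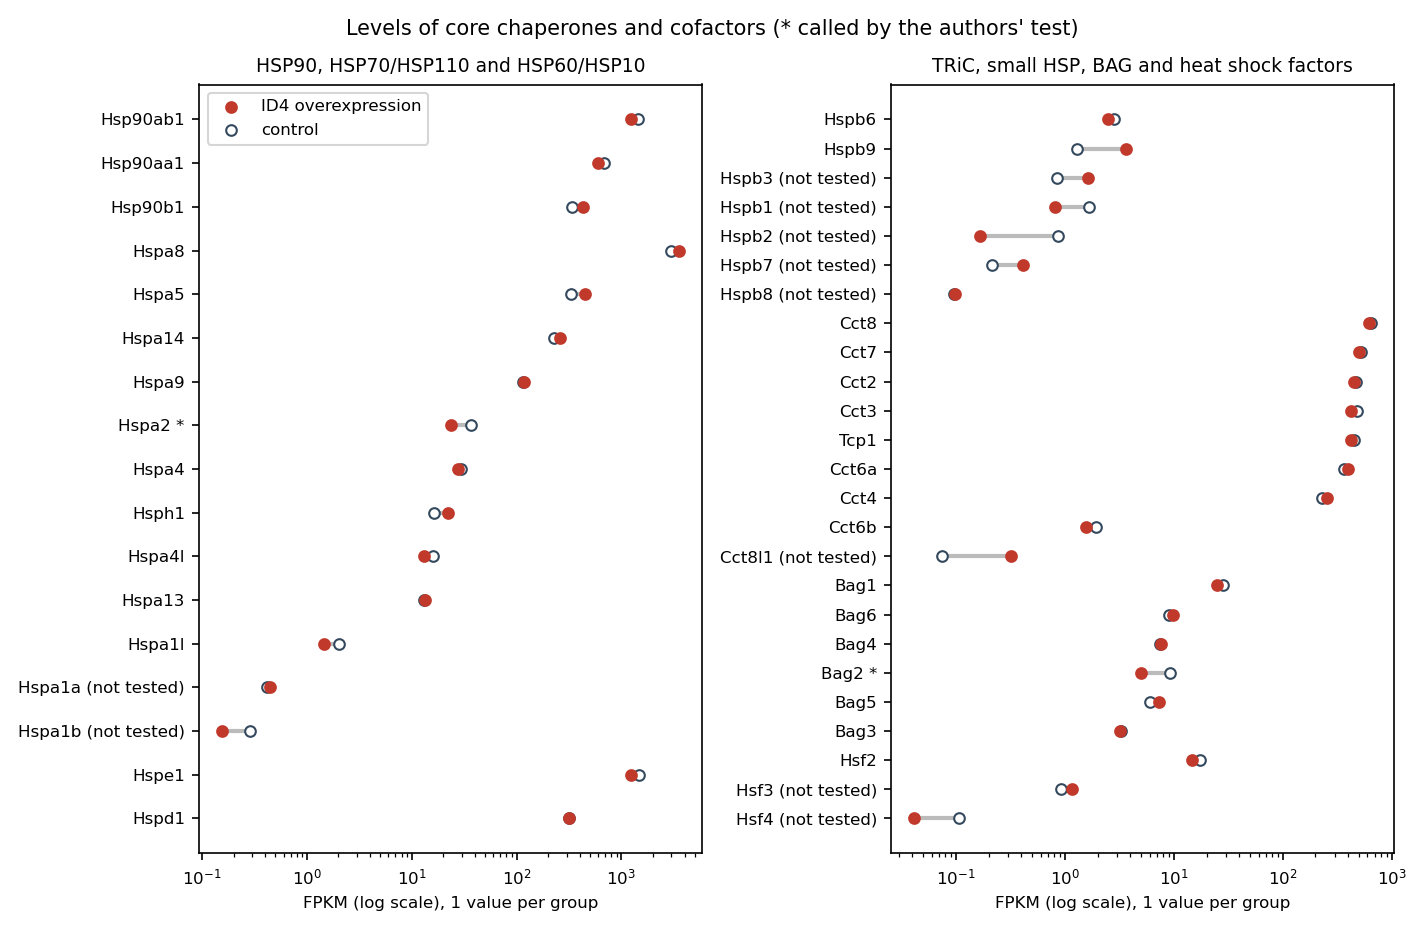
FPKM (x axis, log scale; 1 value per group, no error available) of HSP90, HSP70, HSP60, TRiC, small heat shock protein, BAG and heat shock factor genes, filled circles for ID4 overexpression and open circles for controls. Hspa2 and Bag2 are the called genes, both with the filled circle on the left, and no gene above 100 FPKM is called.

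No chaperonin gene was called. TRiC is a double-ring chaperonin of the cytosol that folds actin and tubulin, built of different subunits in equal number, 7 of which are members here. Their levels spanned 255 FPKM for Cct4 to 625 FPKM for Cct8 with overexpression, and 227 FPKM for Cct4 to 643 FPKM for Cct8 in controls. Log2 fold changes ran between -0.18 for Cct3 and 0.17 for Cct4, and 0 of 7 were called. In the authors' deposited table q ran from 0.554 for Cct3 to 0.929 for Cct2. In both groups Cct8 and Cct7 stood at the top, followed by Cct2 and Cct3 in either order, and Cct4 stood at the bottom. Cct6b, a testis form of the zeta subunit, had 1.57 FPKM with overexpression and 1.92 FPKM in controls, while the somatic form Cct6a had 400 FPKM with overexpression and 368 FPKM in controls. Cct8l1 was not tested and had 0.323 FPKM with overexpression and 0.0746 FPKM in controls. The exons of Cct8, Cct7, Tcp1 and Cct6a overlap a gene on the opposite strand, and whether strand was used in counting is not stated. In all, 21 of the 74 tested members share exonic positions with another coding gene.

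In mitochondria, HSP60 and its lid HSP10 form the chaperonin that folds imported proteins. Hspe1, for HSP10, had 1248 FPKM with overexpression and 1483 FPKM in controls (q = 0.386 in the authors' deposited table). Hspd1, for HSP60, had 316 FPKM with overexpression and 318 FPKM in controls (q = 0.981 in the authors' deposited table). Neither was called. Hspd1 and Hspe1 lie head to head on chromosome 1, on opposite strands, and their annotated exons overlap. Each shares 44.8% of its words with other transcripts.

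The shared promoter is shown because it holds a heat shock element, the site where heat shock factors bind as trimers. The motif searched was GAA, TTC and GAA, each followed by the next after 2 free bases, on both strands, in windows of 300 bases from RefSeq (GRCm38.p6), 250 bases before and 50 after each annotated start. Windows were found for 73 of the 89 members. The motif was in 4 of these 73 (5.48%), namely Hspd1, Hspe1, Dnajb6 and Hsph1, against 179 of all 27025 genes with a window (0.662%). The Hspd1 and Hspe1 windows hold the same stretch, where a match on each strand overlaps the other. In the windows below the matched letters are in capitals, and only exact matches were searched or marked. The Hspe1 window is chr1:55087898-55088197 on the plus strand and the Hsph1 window is chr5:149636266-149636565 on the minus strand.
Hspe1: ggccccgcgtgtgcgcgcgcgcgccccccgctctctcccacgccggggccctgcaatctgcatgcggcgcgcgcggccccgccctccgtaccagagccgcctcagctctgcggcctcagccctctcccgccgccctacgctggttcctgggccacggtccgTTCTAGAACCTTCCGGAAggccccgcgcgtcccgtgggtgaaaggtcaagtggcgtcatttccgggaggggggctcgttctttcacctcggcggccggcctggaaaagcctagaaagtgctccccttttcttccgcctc
Hsph1: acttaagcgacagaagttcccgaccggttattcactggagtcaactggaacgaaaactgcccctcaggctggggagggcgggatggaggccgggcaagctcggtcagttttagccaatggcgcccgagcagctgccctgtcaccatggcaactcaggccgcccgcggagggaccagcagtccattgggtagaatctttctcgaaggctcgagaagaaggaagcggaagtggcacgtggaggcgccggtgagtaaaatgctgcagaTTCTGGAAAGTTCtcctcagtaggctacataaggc
The Hspe1 matches run from position -89 to -72 from the start, and the Hsph1 match lies downstream of it, at 16 to 28. The 4 genes that hold the motif had log2 fold changes of -0.01 (Hspd1), -0.25 (Hspe1), 0.36 (Dnajb6) and 0.46 (Hsph1), and 0 of them were called. Dnajb1, a known target of heat shock factor 1 that was called higher, is not among the 4. A match is a description of the letters and was not tested for binding. The motif was chosen with earlier results of these data known, and the difference between the shares was not tested. Elements with a changed letter were not searched, so the lack of a match does not show that a gene lacks an element.

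No heat shock factor gene among the members was called, and 1 of the 3 was tested. Hsf1, the main factor, lies on chromosome 15 and is no member. It was called lower, with 14.4 FPKM with overexpression and 22.0 FPKM in controls (q = 0.0138 in the authors' deposited table). On that chromosome 56.2% of tested entries were called lower. Hsf2, a factor known from testis and embryo, had 14.7 FPKM with overexpression and 17.4 FPKM in controls and was not called (q = 0.412 in the authors' deposited table). Hsf3 and Hsf4 were not tested and stayed at or below 1.17 FPKM in both groups. Of 19 known targets of heat shock factor 1, 16 were tested, and 2 rose while 0 fell. This is 12.5% of the 16, beside 9.59% called higher and 17.0% called either way among all tested entries. The median log2 fold change of the 16 was 0.01. The 2 were the J-protein gene Dnajb1 and Serpinh1, which encodes the collagen chaperone HSP47 and is no member here. Serpinh1 had 6.64 FPKM with overexpression and 2.01 FPKM in controls (q = 0.000835 in the authors' deposited table). Beside it, 2 of 3 tested fibroblast markers were higher, with summed fibroblast levels of 48.6 FPKM with overexpression and 21.4 FPKM in controls. Sparc alone had 34.1 FPKM with overexpression and 11.5 FPKM in controls. The other 6 listed markers, among them the collagen genes Col1a1, Col1a2 and Col3a1, were not tested. They had at most 1.62 FPKM with overexpression and 1.45 FPKM in controls. As given above, most tested macrophage, Sertoli, Leydig and spermatid markers were higher too. The part of fibroblasts or of these other cells in the Serpinh1 value was not tested. The heat-inducible targets Hspa1a, Hspa1b and Hspb1 were not tested, and their highest level was 0.806 FPKM with overexpression and 1.67 FPKM in controls.

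J-domain proteins make up 42 of the members, and 39 of them were tested. Of the 39, 3 rose and 0 fell (7.69% called, beside 9.59% called higher and 17.0% called either way among all tested entries). Their median log2 fold change was 0.18, beside 0.01 over all tested entries, and 26 values lay above 0 and 13 below. Dnajb1, the stress-inducible HSP40 that works with HSP70 and HSP110 on aggregates, rose to 48.5 FPKM with overexpression, against 32.5 FPKM in controls. Its log2 fold change was 0.58, with q = 0.00986 in the authors' deposited table, and it lies on chromosome 8 at 83608175 to 83611903. Dnajb11, an ER partner of BiP also called ERdj3, rose to 63.7 FPKM with overexpression, against 45.8 FPKM in controls. Its log2 fold change was 0.48, with q = 0.0398 in the authors' deposited table. Neither gene overlaps exons of another coding gene, and Dnajb1 and Dnajb11 share 0.441% and 0% of their words with other transcripts.

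Dnajc5b, a relative of the synaptic vesicle protein CSP-alpha known from testis, had the largest fold change of all tested members. It had 3.55 FPKM with overexpression and 0.517 FPKM in controls, 6.87-fold higher, with q = 0.0187 in the authors' deposited table. Its exons overlap 1700064H15Rik on the opposite strand, so that reads of the pair cannot be separated without strand. It also shares 16.9% of its words with transcripts of other genes, so its level is uncertain. The control value lies below 1 FPKM. All 5 tested spermatid markers were also higher in this comparison, among them Prm1, the protamine gene, with 192 FPKM with overexpression and 35.9 FPKM in controls. Their part in the Dnajc5b value was not tested.

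Among type A J-proteins, the broad cytosolic and mitochondrial HSP70 partners, 0 of 4 were called. Dnaja1 had 213 FPKM with overexpression and 171 FPKM in controls, and Dnaja2 had 131 FPKM with overexpression and 167 FPKM in controls. These cytosolic relatives thus lay on opposite sides of no change, with q = 0.363 and 0.174 in the authors' deposited table. The mitochondrial form Dnaja3 had 38.3 FPKM with overexpression and 31.8 FPKM in controls, and Dnaja4 had 4.17 FPKM with overexpression and 3.71 FPKM in controls.

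Of 10 tested type B members, 2 were higher (20%, beside 9.59% of all tested entries), the Dnajb1 and Dnajb11 already given. The most abundant was Dnajb6, which keeps polyglutamine proteins soluble, with 215 FPKM with overexpression and 167 FPKM in controls (q = 0.135 in the authors' deposited table). Dnajb9, the ER protein ERdj4, had 33.2 FPKM with overexpression and 25.6 FPKM in controls. The remaining tested members, named here after their values were seen, were Dnajb2, Dnajb3, Dnajb4, Dnajb12, Dnajb13 and Dnajb14. Their log2 fold changes ran from -0.46 for Dnajb2 to 0.84 for Dnajb13, and none was called. Dnajb5 and Dnajb8 were not tested and had at most 1.70 FPKM with overexpression and 0.975 FPKM in controls.

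Type C members share little beyond the J domain, and 1 of 25 tested, Dnajc5b, was called (4%, beside 17.0% of all tested entries). The 4 most abundant were not called. Dnajc8, found with splicing proteins, had 282 FPKM with overexpression and 286 FPKM in controls. Dnajc19, part of the mitochondrial import motor, had 196 FPKM with overexpression and 168 FPKM in controls. Dnajc7, which links HSP70 and HSP90, had 146 FPKM with overexpression and 144 FPKM in controls, and mitochondrial Dnajc15 had 107 FPKM with overexpression and 120 FPKM in controls. Of those that missed the threshold narrowly, Dnajc10 had a log2 fold change of 0.41, Dnajc2 of -0.43 and Dnajc4 of -0.57, with q = 0.0833, 0.0928 and 0.0940 in the authors' deposited table. Dnajc2, which works with Hspa14 at the ribosome, had 44.3 FPKM with overexpression and 59.5 FPKM in controls, while Hspa14 had a log2 fold change of 0.19. Dnajc2 and Dnajc4 were named after their values were seen. Dnajc9, a histone chaperone also chosen after its value was seen, had 91.1 FPKM with overexpression and 76.6 FPKM in controls. Dnajc6, the auxilin gene of neurons, was not tested.

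**Figure D3:**
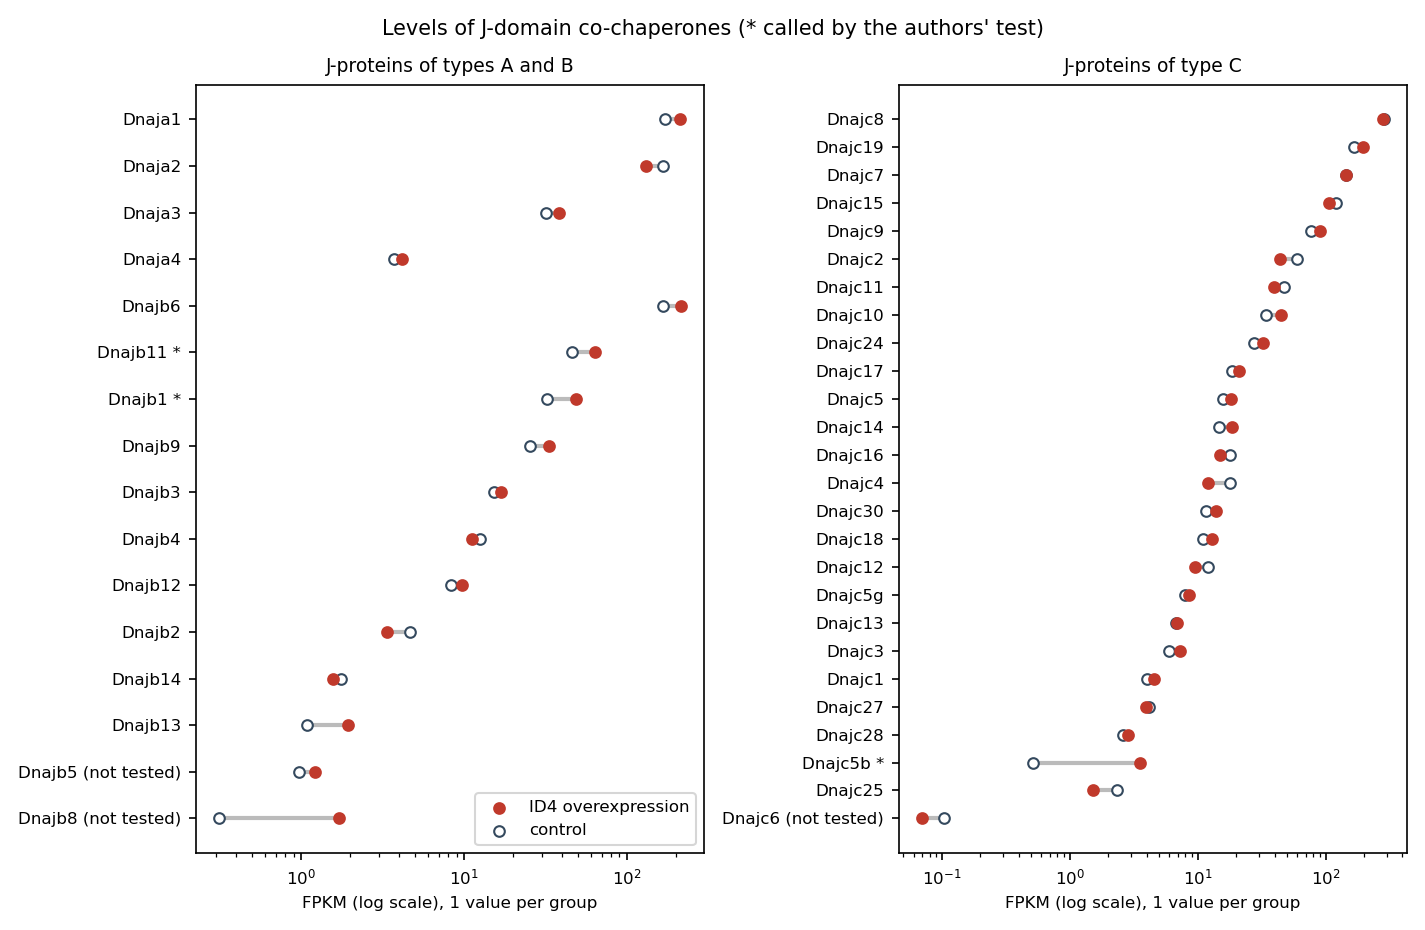
FPKM (x axis, log scale; 1 value per group, no error available) of the 42 J-protein genes, filled circles for ID4 overexpression and open circles for controls, with called genes marked by an asterisk. Dnajb11, Dnajb1 and Dnajc5b are the marked genes, and in each the filled circle lies to the right of the open one.

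BAG proteins release nucleotide from HSP70 and route clients to folding or breakdown. Of the 6, 1 was called (16.7%, beside 17.0% of all tested entries). Bag2, an inhibitor of the ubiquitin ligase CHIP, fell to 4.96 FPKM with overexpression, against 9.28 FPKM in controls. Its log2 fold change was -0.90, the lowest of all tested members, with q = 0.0033 in the authors' deposited table. It lies on chromosome 1 at 33745484 to 33757750, and its exons overlap no other coding gene. The most abundant member, Bag1, had 24.7 FPKM with overexpression and 28.4 FPKM in controls. Bag6, which delivers tail-anchored and faulty proteins, had 9.83 FPKM with overexpression and 9.01 FPKM in controls, and Bag4 had 7.61 FPKM with overexpression and 7.51 FPKM in controls. Bag3, a heat shock factor target that acts in autophagy, had 3.21 FPKM with overexpression and 3.27 FPKM in controls. Bag5 had a log2 fold change of 0.29 and was not called.

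Small heat shock proteins hold unfolded clients without ATP, and the 7 genes for them among the members had low levels. Any with other symbols fall outside the rule. The authors tested 2 of 7, and 0 were called. Hspb9, a testis form, had 3.64 FPKM with overexpression and 1.28 FPKM in controls, with a log2 fold change of 1.50 and q = 0.0804 in the authors' deposited table. Hspb6 had 2.48 FPKM with overexpression and 2.84 FPKM in controls. The other 5, Hspb1, Hspb2, Hspb3, Hspb7 and Hspb8, were at most 1.64 FPKM with overexpression and 1.67 FPKM in controls. A further 3 members have symbols that begin with Hspb but were not counted as small heat shock proteins. Hspb11, which encodes the ciliary transport protein IFT25, had 76.9 FPKM with overexpression and 102 FPKM in controls. Hspbap1 and the HSP70 exchange factor Hspbp1 had 40.9 and 22.9 FPKM with overexpression and 37.9 and 19.0 FPKM in controls. None of these 3 was called.

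Most ER chaperone genes that match the symbol rule had values above those of controls, although 1 passed the test. The ER stress list holds 26 genes, all tested, of which 2 rose and 5 fell (26.9% called, beside 17.0% of all tested entries). Its median log2 fold change was -0.01. Its 7 chaperone family members, Dnajb11, Hspa5, Dnajc10, Dnajb9, Hsp90b1, Dnajc3 and Hspa13, had log2 fold changes from 0.03 to 0.48, all above 0, and 1 of them was called. Their summed level was 1046 FPKM with overexpression and 796 FPKM in controls. Dnajc10, a reductase of misfolded ER protein, had 45.2 FPKM with overexpression and 34.1 FPKM in controls. Dnajc3, an inhibitor of the kinase PERK, had 7.29 FPKM with overexpression and 5.96 FPKM in controls. Other ER J-proteins, chosen after their values were seen, did not all lie above 0: Dnajc1 and Dnajb12 had 0.18 and 0.24, and Dnajb14 and Dnajc25 had -0.17 and -0.64 on the log2 scale.

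The 19 genes of that list that are no members gave 1 higher call and 5 lower ones. This is 31.6% called, beside 17.0% of all tested entries. Their median log2 fold change was -0.16, with 6 values above 0 and 13 below. The higher one was Canx, for the membrane lectin chaperone calnexin, with 136 FPKM with overexpression and 92.8 FPKM in controls (q = 0.0189 in the authors' deposited table). Other ER folding genes, chosen after their values were seen, mostly lay below 0 and were not called. Hyou1, Pdia3 and Calr had -0.46, -0.41 and -0.29 on the log2 scale. Pdia6 and Manf had -0.16 and -0.13, and Pdia4 had 0.03. Trib3, a pseudokinase induced by ATF4, had 1.59 FPKM with overexpression and 5.15 FPKM in controls. Asns, the asparagine synthetase gene and another ATF4 target, had 23.9 FPKM with overexpression and 42.5 FPKM in controls. Both have q = 0.000835 in the authors' deposited table. Creld2 also fell, to 77.3 FPKM with overexpression, against 120 FPKM in controls, and so did Sdf2l1 and the factor gene Atf4, by 0.64 and 0.53 on the log2 scale. Atf4 and Creld2 lie on chromosome 15, where 56.2% of tested entries were called lower. Outside it 2 of 24 genes of the whole list, members included, were higher and 3 lower. This is 20.8% called, beside 15.3% of all tested entries outside chromosome 15. Sdf2l1 and Atf4 have q = 0.0447 and 0.0229 in the authors' deposited table, and Creld2 has 0.00533.

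**Figure D4:**
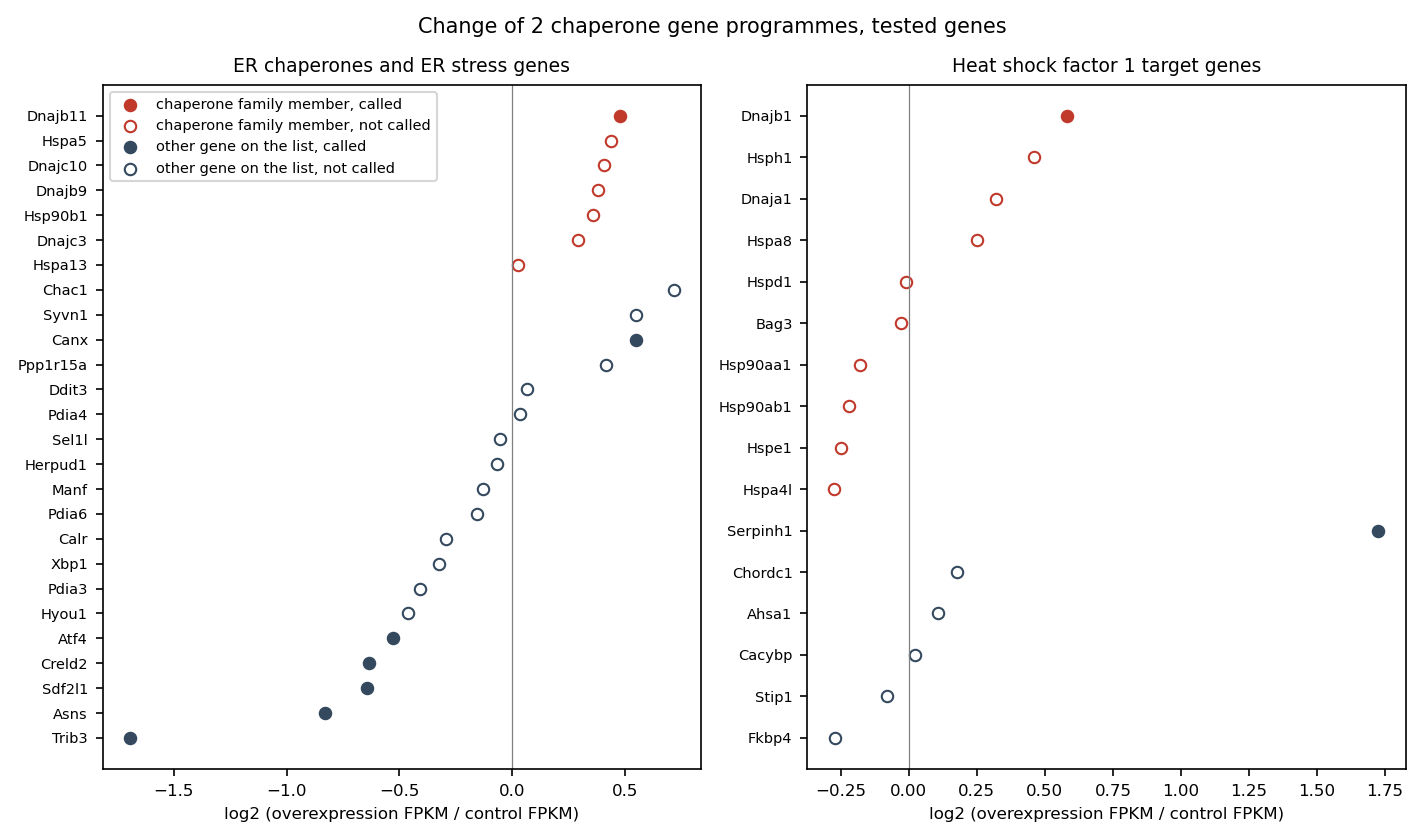
Log2 fold change (overexpression over control FPKM, x axis) of the tested genes of the ER stress list, left, and of heat shock factor 1 targets, right; red for chaperone family members, blue for other listed genes, filled where called. The 7 red circles in the ER panel lie between 0.03 and 0.48, while those of heat shock factor 1 targets fall on both sides of 0.

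The ER promoters are shown because 4 of the 7 listed ER members hold an exact match to a response element for ER stress. The ER stress response element, CCAAT and CCACG with 9 free bases between them, was searched on both strands in the same windows. It was found in Hspa5, Hsp90b1 and Dnajc3, 3 of 73 members (4.11%), against 37 of 27025 genes (0.137%). The shorter element II, ATTGG and CCACG with 1 free base between them, was found in Dnajb11, 1 of 73 members (1.37%), against 12 of 27025 genes (0.0444%). Both elements were chosen with earlier results of these data known. Their shares are a description, and the difference between members and all genes was not tested. Matched letters are in capitals, and again only exact matches were searched or marked. The windows are chr2:34771840-34772139 on the plus strand for Hspa5, chr10:86705395-86705694 on the minus strand for Hsp90b1 and chr16:22857595-22857894 on the plus strand for Dnajb11.
Hspa5: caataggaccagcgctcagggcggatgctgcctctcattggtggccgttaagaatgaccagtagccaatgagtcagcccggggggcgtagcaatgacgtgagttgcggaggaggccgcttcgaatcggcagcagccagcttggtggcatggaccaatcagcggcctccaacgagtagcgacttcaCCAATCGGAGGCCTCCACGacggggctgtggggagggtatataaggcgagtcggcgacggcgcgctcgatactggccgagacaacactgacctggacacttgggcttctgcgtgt
Hsp90b1: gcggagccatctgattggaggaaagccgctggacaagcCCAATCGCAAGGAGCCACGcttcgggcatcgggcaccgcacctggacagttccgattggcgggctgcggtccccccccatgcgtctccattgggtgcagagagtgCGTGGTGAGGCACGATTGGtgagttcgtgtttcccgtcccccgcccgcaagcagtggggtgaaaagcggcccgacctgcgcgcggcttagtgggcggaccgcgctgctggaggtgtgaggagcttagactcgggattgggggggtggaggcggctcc
Dnajb11: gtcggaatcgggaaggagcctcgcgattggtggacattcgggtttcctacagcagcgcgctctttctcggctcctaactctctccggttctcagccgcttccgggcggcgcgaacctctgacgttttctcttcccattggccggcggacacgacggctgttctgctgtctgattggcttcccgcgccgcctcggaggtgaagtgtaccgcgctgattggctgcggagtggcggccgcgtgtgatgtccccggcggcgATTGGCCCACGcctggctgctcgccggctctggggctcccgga
The Hspa5 match runs from -65 to -47 from the annotated start, and the Hsp90b1 window holds 2 matches, at -212 to -194 and at -107 to -89. The Dnajb11 match lies just past the start, at 8 to 18. Log2 fold changes of these genes were 0.44 for Hspa5, 0.36 for Hsp90b1, 0.29 for Dnajc3 and 0.48 for Dnajb11. Of these, Dnajb11 was the called one. The listed ER members for which no match was found, Dnajc10, Dnajb9 and Hspa13, had 0.41, 0.38 and 0.03. A match describes the letters and was not tested for binding. Elements with a changed letter were not searched, so the lack of a match does not show that a gene lacks an element.

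Members known from testis or late germ cells did not move one way. Of 10 such genes 9 were tested, with 1 higher (Dnajc5b) and 1 lower (Hspa2), which is 22.2% beside 17.0% of all tested entries. Their median log2 fold change was 0.11. The spermatid J-protein gene Dnajb3 had 16.8 FPKM with overexpression and 15.3 FPKM in controls, and Dnajc5g had 8.53 FPKM with overexpression and 7.91 FPKM in controls. Dnajb13, of the sperm tail axoneme, had 1.94 FPKM with overexpression and 1.09 FPKM in controls, with q = 0.222 in the authors' deposited table. Dnajb8 was not tested and had 1.70 FPKM with overexpression and 0.312 FPKM in controls. Spermatid markers summed to 317 FPKM with overexpression and 81.1 FPKM in controls beside them, and their part in these values was not tested.

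Folding factors outside these families gave 4 calls. Of 29 listed co-chaperones, prefoldins and proteases, 28 were found and tested. Of these, 1 rose and 3 fell (14.3% called, beside 17.0% of all tested entries). Their median log2 fold change was 0.05. The higher one was Serpinh1, and 2 of the lower ones, St13 and Pfdn5, lie on chromosome 15. St13, which encodes the HSP70-interacting protein HIP, had 61.9 FPKM with overexpression and 123 FPKM in controls. The prefoldin subunit gene Pfdn5 had 384 FPKM with overexpression and 670 FPKM in controls. Outside chromosome 15, 1 of 26 was higher and 1 lower (7.69% called, beside 15.3% of all tested entries outside it). The lower one was Trap1, the mitochondrial HSP90 gene, with 86.1 FPKM with overexpression and 118 FPKM in controls. The authors' deposited table lists q = 0.000835 for St13 and Pfdn5 and 0.04 for Trap1.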

How the data were processed

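RNA of 6 samples, 3 with ID4 overexpression and 3 controls, was extracted with Trizol and primed with oligo d(T), per the labels' protocols. TopHat, Cufflinks and mm9 are named in the submitters' processing notes, without versions. The deposited FPKM values are 1 per group, combined by the authors over replicates; scaling and use of strand are not stated. For each gene the authors deposited a p-value, its q-value and whether it was tested, in Cuffdiff's gene-level format per the file headers. The q-values differed from a Benjamini-Hochberg adjustment over tested entries by at most 4.77e-05. Positions match GRCm38, not mm9: 21426 of 21631 symbols (99.1%) overlap the GENCODE M21 gene of that name, and coordinates are given 1-based.

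Fold changes are overexpression FPKM over control FPKM, with no pseudocount and no refitted model. No count of reads per gene was used and no per-sample value, so no alternative that leaves out a sample was run. The rule for named genes takes all called members, the 4 most abundant of each class, and up to 4 called genes of each other list with the largest absolute change. Every other gene named, such as Hsph1, Hspa4, Hspa4l, Hspa13, Hspa1l, the remaining TRiC subunits, Bag3, Bag5, Dnajc3, Canx and Atf4, was chosen after its values were seen. The members, lists, motifs and tests were chosen with earlier results of these data known. Exon overlap with coding genes and 50-base words shared with transcripts of other genes came from GENCODE M21 (88 members had a coding transcript). In 79 of 92 member promoter windows the last 40 bases occur in a transcript of the gene. Alternatives were q of 0.01 and 0.1, FPKM of at least 1, an absolute log2 fold change of at least 1, pseudocounts of 1 and 0.1, subtraction of the overall median, and leaving out 25 overlapping members. Python 3.11.15, pandas 2.3.3, numpy 2.4.6, scipy 1.17.1 and matplotlib 3.10.9 were used.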

Additional observations from a re-analysis of the deposited data

How the results depend on the processing

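At a q of 0.01, 1 member was higher (Dnajb1) and 2 lower, and at a q of 0.1, 7 were higher and 4 lower. The 4 higher ones added there were Hsph1, Hspb9, Dnajc10 and Hspa5. With an absolute log2 fold change of at least 1, 1 was higher (Dnajc5b) and 0 lower. With FPKM of at least 1 in both groups, and without members that overlap another gene, 2 were higher and 2 lower, since Dnajc5b leaves. The median log2 fold change of tested members was 0.04, and became 0.026 after subtraction of the overall median and 0.018 without overlapping members. It kept its sign under both pseudocounts, the FPKM minimum and these 2 settings. All 74 tested members kept their direction under both pseudocounts and the subtraction.

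No paired analysis was possible because the table holds 1 value per group and the labels carry no replicate numbers. Leaving out single samples and another test were not run for the same reason. Depth is unknown, so a missed threshold does not show equal levels, least of all for the 15 untested members. Hspa8 is among 24 members that share over 10% of their words with other transcripts, whose levels are uncertain.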

Other observations

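Among the 5 entries that match by name on chromosome 15 and are no members, Hsf1, given above, was called lower. Cct5, the TRiC subunit missing from the 7 above, had 627 FPKM with overexpression and 882 FPKM in controls, and was not called (q = 0.057 in the authors' deposited table). Its log2 fold change of -0.49 lies outside the range of -0.18 to 0.17 of the other subunits. Of 413 tested entries on that chromosome, 56.2% were called lower. Dnajc21 and Dnajb7 had log2 fold changes of -0.32 and -0.42 and were not called, and Dnajc22 was not tested. These genes were chosen after their values were seen.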
